A study of Mus musculus with 4 samples.

Results

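The comparison described here set the liver against the spleen of mice that had eaten a control diet and were killed 6 h after an injection of lipopolysaccharide (LPS), the endotoxin of Gram-negative bacteria. Its members were all genes that could be measured in the control-diet channel of the 4 arrays of the series, which were 18122 of the 27670 genes on the array. The mice of both organs were male C57BL/6J, 7 weeks old, fed a purified diet low in nucleoprotein with 0.03% nucleic acids for 4 weeks, and given LPS at 10 mg/kg. Each array carried 1 organ and both diets, and the control pool was in Cy3 (green) on the replicate 1 array and in Cy5 (red) on the replicate 2 array of each organ. The other channel held mice of the same kind whose diet had been supplemented with nucleoprotein, and it is used here only for comparison.

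RNA was pooled by diet before labelling; how many mice a pool held is not given in the sources used here. The labels number the pooled samples 1 and 2 within an organ without saying whether they were separate pools, so 1 pool per organ was assumed and differences carry neither a test nor a p-value. The housing notes name a standard chow, while the study design names the purified diet, which was followed here. No mice without LPS were analysed, so every value is a difference between organs of injected mice and not a response to LPS. Each organ was whole tissue, in which fewer cells of a type and less RNA per cell cannot be told apart.

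In mice as in humans, LPS is carried by a plasma binding protein to CD14 and the receptor TLR4 on macrophages and endothelial cells, which release TNF, IL-1 and IL-6 through NF-kB. IL-6 and IL-1 then act on hepatocytes, which secrete the acute phase proteins into plasma, while the spleen, a filter of blood packed with B cells, T cells and macrophages, is a main site of cytokine production. Interferons from the same response switch on a set of antiviral and antimicrobial genes in most cell types.

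A level below is a background-corrected log2 intensity after scaling between arrays. A difference is the level in liver minus that in spleen, taken Cy3 against Cy3 and Cy5 against Cy5, and is printed as the mean ± SD of these 2 values. The SD therefore covers labelling, dye and array error and, under the assumption of 1 pool, no variation between mice. A gene was called higher in an organ when both differences lay the same way and passed 2-fold, a log2 value of 1. It counted as measurable if both arrays of at least 1 organ showed its probe well above background.

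By this rule 2554 genes were higher in liver (14.1% of those measurable) and 3389 were higher in spleen (18.7%), together 32.8%. Both dyes gave nearly the same differences, with a correlation of 0.98 across genes, a median SD of 0.11, and 3 genes past the bound in opposite directions. The large differences lay on the liver side. Past 32-fold, 379 genes were higher in liver and 57 in spleen. At 2-fold the liver held 43.0% of all calls, but this split depended on the scaling, being 62.0% when each channel was set to its 75th percentile and 90.1% when the channels were set to equal levels of ribosomal protein genes. Those 2 scalings raised the median difference of all genes, -0.13, by 0.49 and 1.17. In the setting used 17 of 38 ribosomal protein genes were higher in spleen and 0 in liver, with a median of -1.15, so the last scaling takes that difference as none. Moderate differences toward the spleen are therefore read below relative to that.

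**Figure D1:**
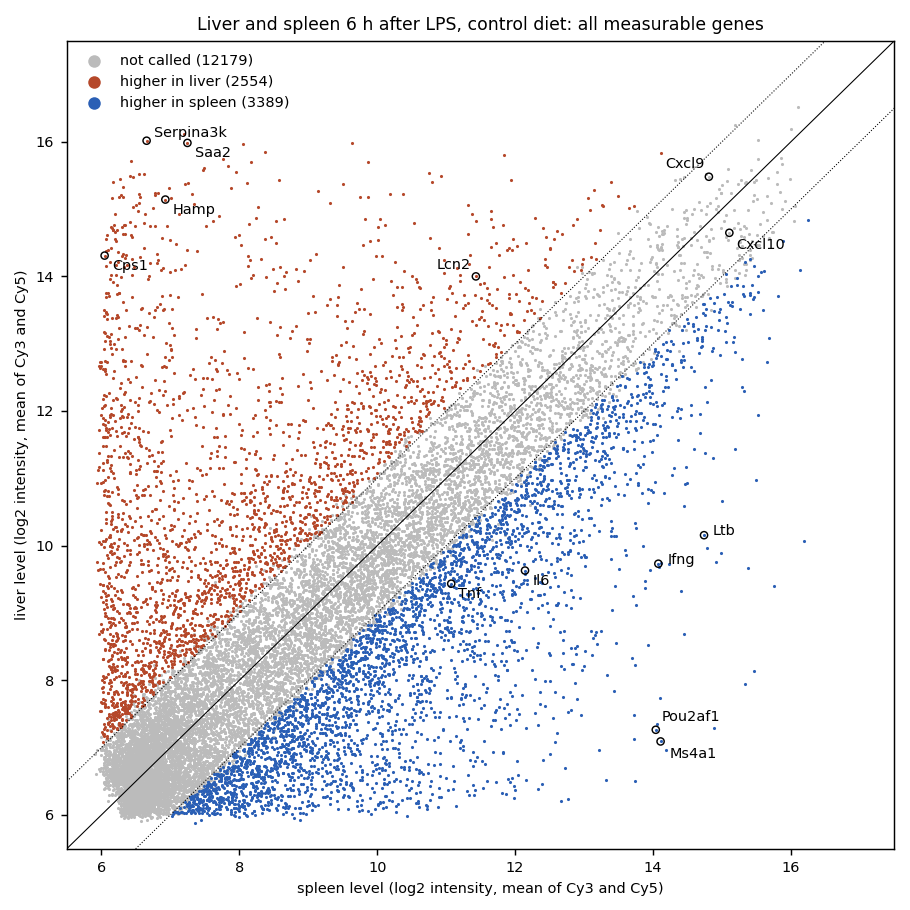
Level in liver (vertical axis) against level in spleen (horizontal axis) for the 18122 measurable genes, both as log2 intensity averaged over Cy3 and Cy5. Colours mark the 2554 genes called higher in liver and the 3389 called higher in spleen, the solid line marks equal levels and the dotted lines 2-fold. Serpina3k, Saa2, Hamp and Cps1 stand at the upper left, Ms4a1 and Pou2af1 at the lower right, and the chemokines Cxcl9 and Cxcl10 at the upper right between the dotted lines.

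Marker genes followed the organ labels. All 19 measurable hepatocyte markers were higher in liver, with a median difference of 7.73, and all 18 B cell markers were higher in spleen, with a median of -4.54. Of 29 T cell and NK cell markers 25 were higher in spleen and 0 in liver, with a median of -2.89. On the 4 arrays 55.2% to 72.8% of gene spots were well above background, and 0 were saturated. The liver pool also carried digestive enzyme genes of pancreatic acinar cells: 22 of 24 markers were higher in liver and 0 in spleen, and all 24 were above background in both organs, at median levels of 11.88 in liver and 9.71 in spleen. Their part in the results below was not tested.

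The gene with the largest measured excess in liver was Serpina3k, a serine protease inhibitor of the antichymotrypsin family (probe on chromosome 12, 101839757 to 101839816, mouse build mm7, the build of all probe positions here). Its level was 15.77 and 16.26 in liver and 6.85 and 6.46 in spleen, a difference of 9.36 ± 0.61, or 657-fold. Spleen levels of this order lie near the lower end of the scale, where the added offset of 50 intensity units shrinks differences. With an offset of 10 the difference of Serpina3k was 10.08. A further probe of Serpina3k gave a smaller difference of 6.72 in the setting used. The other genes among the 12 largest with both organs above background encode plasma proteins or liver enzymes. They were the carboxylesterase Ces3b (9.28 ± 0.37), the aldo-keto reductase Akr1c6 (9.08 ± 0.31), apolipoprotein H (Apoh, 9.02 ± 0.43), the gluconeogenic enzyme Fbp1 (8.98 ± 0.07), the haem carrier hemopexin (Hpx, 8.91 ± 0.47), Apoa5 (8.90 ± 0.43), the major urinary protein Mup5 (8.86 ± 0.25), serum amyloid A2 (Saa2, 8.74 ± 0.45), vitronectin (Vtn, 8.69 ± 0.55), Azgp1 (8.61 ± 0.24) and the vitamin D carrier Gc (8.57 ± 0.40).

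On the spleen side, among genes with official symbols that were above background in both organs, the 12 largest were led by genes of antibody production. The lambda light chain gene Iglv1 differed by -7.39 ± 0.10, the joining chain of secreted IgM and IgA (Jchain) by -7.23 ± 0.14, the Notch regulator Dtx1 by -7.23 ± 0.13, and the B cell surface protein CD20 (Ms4a1) by -7.02 ± 0.12. Ms4a1 stood at 7.09 and 7.09 in liver and 14.20 and 14.02 in spleen. Next among these came the B cell coactivator Pou2af1 (-6.78 ± 0.01), the serine synthesis enzyme Phgdh (-6.37 ± 0.30), the lymphocyte kinase Map4k1 (-6.26 ± 0.09), the B cell receptor subunit Cd79b (-6.24 ± 0.12), the IgM receptor Fcmr (-6.03 ± 0.12), Ly6d (-5.77 ± 0.31), the IgM heavy chain Ighm (-5.71 ± 0.32) and the T cell coreceptor chain Cd8b1 (-5.61). A further probe of Cd8b1 gave 0.66, and those of Ighm ranged from -7.60 to -1.60. Except for Phgdh, these genes are known above all from lymphocytes.

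Where a gene was well above background in 1 organ and in neither array of the other, the fold is a lower bound set against the dimmest signals that were above background. On this reading apolipoprotein C3 (Apoc3) and urate oxidase (Uox) were each at least 385-fold higher in liver, the protease inhibitor Pzp at least 368-fold, serum amyloid A4 (Saa4) at least 312-fold and Cyp2c40 at least 310-fold. In the other direction the bounds were smaller. Coch was at least 91.8-fold higher in spleen by its brightest probe, others giving -4.59 and -0.65, the kappa variable gene Igkv4-55 at least 46.7-fold, the phospholipase Pla2g5 at least 27.1-fold, the B cell gene Fcrl1 at least 24.7-fold, Nsg2 at least 24.0-fold and complement receptor 2 (Cr2) at least 21.1-fold, with a further probe at -0.44.

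The genes of the positive acute phase, whose proteins rise in plasma during inflammation, fell into a liver class and a shared class. Of 38 measurable members 31 were higher in liver and 0 in spleen, and the list median was 5.26. Serum amyloid A1 (Saa1), an apolipoprotein of the acute phase, stood at 15.44 and 15.71 in liver and at 7.46 and 7.50 in spleen, a difference of 8.10 ± 0.17, or 274-fold. Saa2 stood at 15.83 and 16.13 in liver and at 6.78 and 7.71 in spleen. Liver and spleen did not overlap for either gene, though Saa1 and Saa2 are near copies whose probes can bind both, and a further probe of Saa1 gave a smaller difference of 3.80. Hepcidin (Hamp), the hormone that blocks iron export, was at 14.66 and 15.62 in liver and 6.85 and 7.00 in spleen, a difference of 8.21 ± 0.57.

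Fibrinogen, the clotting protein, followed the same pattern in all 3 of its chains. The beta chain Fgb was at 15.71 and 16.23 in liver against 8.10 and 8.01 in spleen, a difference of 7.91 ± 0.42. The alpha chain Fga differed by 8.93 ± 0.84 and the gamma chain Fgg by 7.81 ± 0.53. Orosomucoid 1 (Orm1), a lipocalin of plasma, differed by 7.50 ± 0.13 and serum amyloid P (Apcs), a pentraxin, by 7.15 ± 0.31.

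A smaller organ difference was seen for the acute phase genes that leucocytes or epithelia also make. Serum amyloid A3 (Saa3) was at 14.12 and 15.00 in liver and 12.24 and 12.88 in spleen, a difference of 1.99 ± 0.17. Lipocalin 2 (Lcn2), which withholds iron from bacteria, was at 13.55 and 14.44 in liver and 11.29 and 11.57 in spleen, or 2.57 ± 0.43. Haptoglobin (Hp), which binds free haemoglobin, was at 15.28 and 15.29 in liver and 13.08 and 13.21 in spleen, or 2.14 ± 0.08. For these 3 genes liver was above spleen on every array, by 3.98-fold, 5.93-fold and 4.41-fold.

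The 7 members that were not called were at high levels in both organs. The central complement component C3 was at 15.90 and 16.14 in liver and 15.50 and 15.55 in spleen, a difference of 0.49 ± 0.13, while a further, dimmer probe of C3 gave 3.22. Complement factor B (Cfb) differed by 0.51 ± 0.47, the LPS coreceptor Cd14 by 0.54 ± 0.02, the IL-1 receptor antagonist Il1rn by -0.03 ± 0.34, metallothionein 2 (Mt2) by 0.06 ± 0.04, the signal feedback inhibitor Socs3 by 0.13 ± 0.24 and the IL-6 signal transducer Stat3 by 0.04 ± 0.18. Stat3 stood at 13.80 and 13.60 in liver and at 13.89 and 13.43 in spleen, so its organs overlapped. The transcription factors C/EBP beta and delta (Cebpb and Cebpd), which act on acute phase genes, were also at like levels, with differences of 0.41 ± 0.25 and 0.16 ± 0.10, though a further probe of Cebpb gave 1.44.

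**Figure D2:**
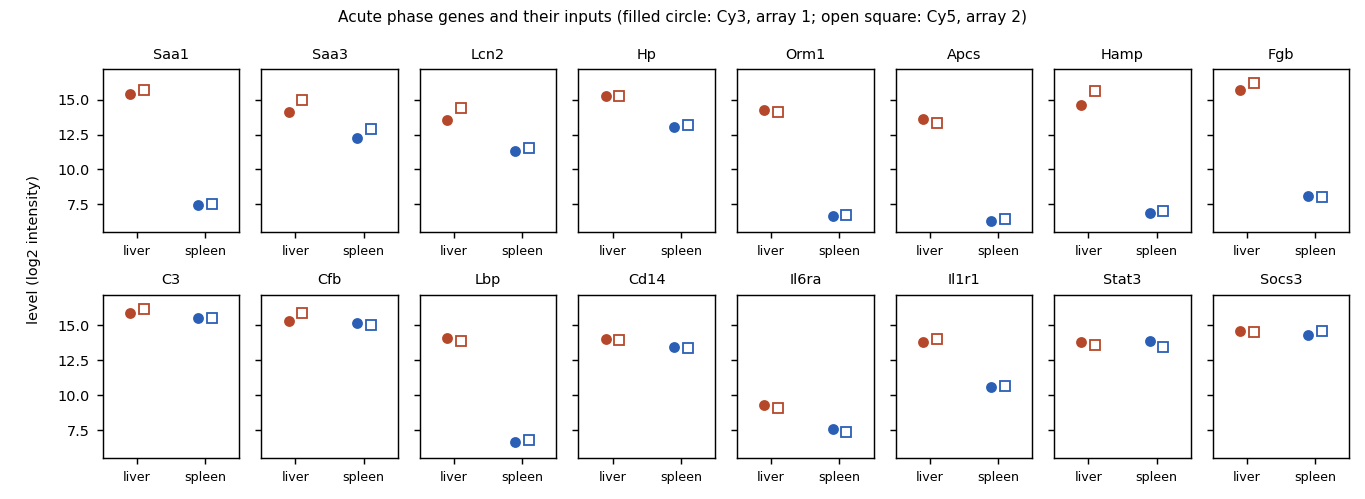
Level (log2 intensity) of 16 acute phase genes, receptors and signal genes in liver and spleen, with 1 filled circle for the Cy3 array and 1 open square for the Cy5 array of each organ. Saa1, Orm1, Apcs, Hamp, Fgb and Lbp are far apart, Saa3, Lcn2 and Hp are 3.98-fold to 5.93-fold apart, and C3, Cfb, Cd14, Stat3 and Socs3 lie within 2-fold.

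The signals that reach these genes were compared next. Of the ligands, Il6 was at 9.75 and 9.51 in liver and 12.24 and 12.04 in spleen, a difference of -2.51 ± 0.03, and Il1b was at 11.45 and 11.50 in liver and 12.35 and 12.38 in spleen, or -0.89 ± 0.01, which was not called. Of their receptors and related ones, the IL-1 receptor Il1r1 was at 13.81 and 14.03 in liver and 10.54 and 10.62 in spleen, or 3.34 ± 0.10. The IL-6 receptor Il6ra differed by 1.73 ± 0.04 and Il13ra1 by 2.79 ± 0.09. The IL-1 accessory chain Il1rap differed by 5.77 ± 0.15 and the leukaemia inhibitory factor receptor Lifr by 4.72 ± 0.36, but other probes gave -0.02 for Il1rap and 0.57 to 0.66 for Lifr, and both calls were lost under the median over all probes. Receptor genes of lymphocytes were higher in spleen, among them Il2rb (-4.54 ± 0.01), Il7r (-4.26 ± 0.20, with a further probe at -1.04) and Il10ra (-4.09). Of the 38 receptor and SOCS genes in all, 8 were higher in liver, 13 in spleen and 17 neither. Over all measurable genes 14.1% were higher in liver and 18.7% in spleen. The list median of -0.59 became 0.58 when scaled to ribosomal protein genes.

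Promoter sequences were read for this class. The 250 bases before the start of each gene were read from RefSeq (build GRCm38.p6), which held an entry for 22 of the 31 acute phase genes called higher in liver. The core letters TTGCNNAA of sites for C/EBP factors, on either strand, were present in 12 of these 22 (54.5%), in 17.9% of the 599 genes at least 8-fold higher in liver that had an entry, in 13.2% of the 296 at least 8-fold higher in spleen, and in 10.8% of all 27025 genes with an entry. Hepatocyte markers higher in liver held them in 5 of 12 genes with an entry (41.7%), so the match is not particular to acute phase genes. The uncalled acute phase genes were not counted, so the share says nothing about being called or not. These are matches of letters, counted on both strands, and not shown sites. The 3 windows below were chosen as those of a fibrinogen chain and of both amyloid genes, each with its match in capitals.
Fgb, chr3:83049864-83050113, minus strand, C/EBP core from 80 bases before the start: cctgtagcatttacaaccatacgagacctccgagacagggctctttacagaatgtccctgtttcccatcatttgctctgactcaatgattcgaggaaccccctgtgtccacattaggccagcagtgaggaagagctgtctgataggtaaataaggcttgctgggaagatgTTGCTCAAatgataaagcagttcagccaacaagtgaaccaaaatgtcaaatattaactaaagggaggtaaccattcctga
Saa1, chr7:46742981-46743230, minus strand, C/EBP core from 182 bases before the start: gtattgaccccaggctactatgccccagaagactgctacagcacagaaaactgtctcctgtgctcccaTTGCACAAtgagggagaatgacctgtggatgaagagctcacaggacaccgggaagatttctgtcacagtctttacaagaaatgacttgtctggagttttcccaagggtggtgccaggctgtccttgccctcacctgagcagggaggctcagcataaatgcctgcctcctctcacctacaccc
Saa2, chr7:46751583-46751832, plus strand, C/EBP core from 183 bases before the start: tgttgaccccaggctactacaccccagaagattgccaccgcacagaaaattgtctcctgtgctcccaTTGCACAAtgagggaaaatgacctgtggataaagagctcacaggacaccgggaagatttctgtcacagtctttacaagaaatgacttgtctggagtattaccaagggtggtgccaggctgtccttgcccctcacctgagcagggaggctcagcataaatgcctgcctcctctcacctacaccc

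Plasma carriers outside the positive acute phase list were liver genes as well. Of 30 carriers and apolipoproteins 29 were higher in liver, with a median of 7.56, and the exception, Apoe, missed the bound on 1 dye at 1.05 ± 0.12. Albumin (Alb) was at 15.05 and 16.04 in liver and 7.90 and 8.01 in spleen, a difference of 7.59 ± 0.63. Apolipoprotein A1 (Apoa1) of high density lipoprotein differed by 9.18 ± 0.22 and transferrin (Trf), the iron carrier, by 5.86 ± 0.40. All 4 major urinary protein genes were higher in liver, between 6.85 ± 0.47 (Mup4) and 8.86 ± 0.25 (Mup5), though this family is so alike that probes can cross over.

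Most genes of coagulation and complement were higher in liver. Of 33 coagulation genes 24 were higher in liver and 3 in spleen. The liver genes included kininogen (Kng1, 8.31 ± 0.68), antiplasmin (Serpinf2, 8.55 ± 0.10) and the fibrinolysis inhibitor Cpb2 (8.41 ± 0.02). The 3 spleen genes were those of endothelial anticoagulation and clot removal, namely tissue factor pathway inhibitor (Tfpi, -2.63 ± 0.17, with other probes from -2.30 to -0.44), the protein C receptor (Procr, -1.86 ± 0.12) and tissue plasminogen activator (Plat, -1.32 ± 0.11). Of 32 complement genes 20 were higher in liver, such as C4bp (9.03 ± 0.32, and 0.76 by a further probe), mannose-binding lectin 2 (Mbl2, 8.53 ± 0.56) and factor I (Cfi, 8.43 ± 0.07), and 6 were higher in spleen. The spleen genes included the chains C1qa (-1.90 ± 0.36) and C1qc (-2.04 ± 0.08) of the first component, which macrophages make, and properdin (Cfp, -2.70 ± 0.39).

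The genes of LPS recognition were looked at one by one, since 5 of 30 higher in liver, 6 in spleen and 19 neither are near the shares over all genes (14.1% and 18.7%). The LPS binding protein Lbp, the plasma carrier, was at 14.11 and 13.90 in liver and 6.62 and 6.75 in spleen, a difference of 7.32 ± 0.24. The receptor Tlr4 was at 6.94 and 6.91 in liver and 7.74 and 7.78 in spleen, or -0.83 ± 0.05, and its partner Ly96 was at -0.82 ± 0.14. Neither was called in the setting used. Tlr4 was dim in both organs, and the added offset shrinks differences at such levels. With an offset of 10 the difference of Tlr4 was -1.12, past 2-fold toward the spleen, while that of Ly96 was -0.84. The missing call of Tlr4 therefore depended on the offset. The adaptor Myd88 was at 13.22 and 13.13 in liver and 13.01 and 12.90 in spleen, or 0.22 ± 0.02.

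Other Toll receptors lay on both sides. Tlr2, the receptor of bacterial lipoproteins, was higher in liver, at 13.34 and 13.48 against 11.12 and 11.14 in spleen (2.28 ± 0.09), as were the DNA receptor Tlr9 (2.52 ± 0.13), the RNA receptor Tlr3 (1.40 ± 0.27) and the adaptor Tirap (2.15 ± 0.12). Tlr1 (-3.32 ± 0.01), the RNA receptor Tlr7 (-3.28 ± 0.09) and the B cell homologue of Tlr4, Cd180 (another probe at -0.69), with its partner Ly86 (-4.31 ± 0.04), were higher in spleen.

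Most cytokine genes that passed the bound were spleen genes. Of 43 measurable cytokines 17 were higher in spleen, 5 in liver and 21 neither, and the list median was -0.82, which became 0.36 when scaled to ribosomal protein genes. Interferon gamma (Ifng, probe on chromosome 10, 117841087 to 117841146), the macrophage-activating cytokine of T and NK cells, was at 9.85 and 9.61 in liver and 14.06 and 14.09 in spleen, a difference of -4.35 ± 0.19, or 20.3-fold. A further probe gave -4.29. Lymphotoxin beta (Ltb), which shapes lymphoid tissue, differed by -4.58 ± 0.10, the mucosal defence cytokine Il22 by -3.64 ± 0.05 and Il18, an inducer of interferon gamma, by -1.97 ± 0.02.

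Tumour necrosis factor (Tnf) was at 9.31 and 9.56 in liver and 11.08 and 11.06 in spleen, a difference of -1.64 ± 0.19, or 3.11-fold. Spleen was above liver on both dyes, though scaling to ribosomal protein genes left only -0.46. The anti-inflammatory Il10 (-0.78 ± 0.09), the IL-12 subunit Il12b (-1.02 ± 0.16) and the granulocyte factor Csf3 (0.03 ± 0.35) were not called. Il10 and Il12b were dim in liver, and the added offset shrinks differences at such levels. The 5 cytokines higher in liver included thrombopoietin (Thpo, at least 47.3-fold, with other probes at 1.26 and 1.72), osteopontin (Spp1, 4.85 ± 0.11), the activin subunit Inhbe (3.41 ± 0.06) and the stress cytokine Gdf15 (2.56 ± 0.14).

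Chemokines, which draw leucocytes into tissue, differed from gene to gene. The neutrophil attractant Cxcl1 was higher in liver, at 13.84 and 13.99 against 11.92 and 12.22 in spleen (1.85 ± 0.11). Cxcl2 differed by 0.50 ± 0.19 and was not called. The interferon-induced attractants of T cells and the monocyte attractant Ccl2 were high in both organs: Cxcl9 was at 15.40 and 15.56 in liver and 14.82 and 14.80 in spleen (0.67 ± 0.12), and Cxcl10 was at 14.47 and 14.83 in liver and 14.88 and 15.34 in spleen (-0.46 ± 0.07). For Ccl2 the difference was -0.08 ± 0.01, with 14.36 and 14.57 in liver and 14.46 and 14.65 in spleen.

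The macrophage inflammatory proteins Ccl3 and Ccl4 were higher in spleen. Ccl3 was at 11.38 and 11.36 in liver and 12.88 and 12.85 in spleen (-1.49 ± 0.01), and Ccl4 at 12.08 and 11.81 in liver and 14.29 and 13.89 in spleen (-2.15 ± 0.09). When scaled to ribosomal protein genes, the difference of Ccl4 was -0.98. That scaling raises every difference by 1.17 on average over the dyes, so Ccl3 also fell short of the bound. Ccl5, at -1.20 ± 0.60, missed the bound on 1 dye. The chemokines that place lymphocytes within lymphoid tissue, Cxcl13 (-3.31 ± 0.13) and Ccl19 (-2.49 ± 0.10), were higher in spleen too, as were Cx3cl1 (-4.41 ± 0.04), the eosinophil attractant Ccl11 (-3.17 ± 0.02) and the platelet chemokines Ppbp (-3.42 ± 0.25) and Pf4 (-2.93 ± 0.25). Ccl9 (2.86 ± 0.11) was higher in liver. By count, 7 of 14 CXC and 7 of 19 CC chemokines were higher in spleen, and 2 and 3 were higher in liver. Over all measurable genes 18.7% were higher in spleen and 14.1% in liver, so the liver counts are near that share. When scaled to ribosomal protein genes, the list medians of -0.93 and -0.35 became 0.24 and 0.82.

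**Figure D3:**
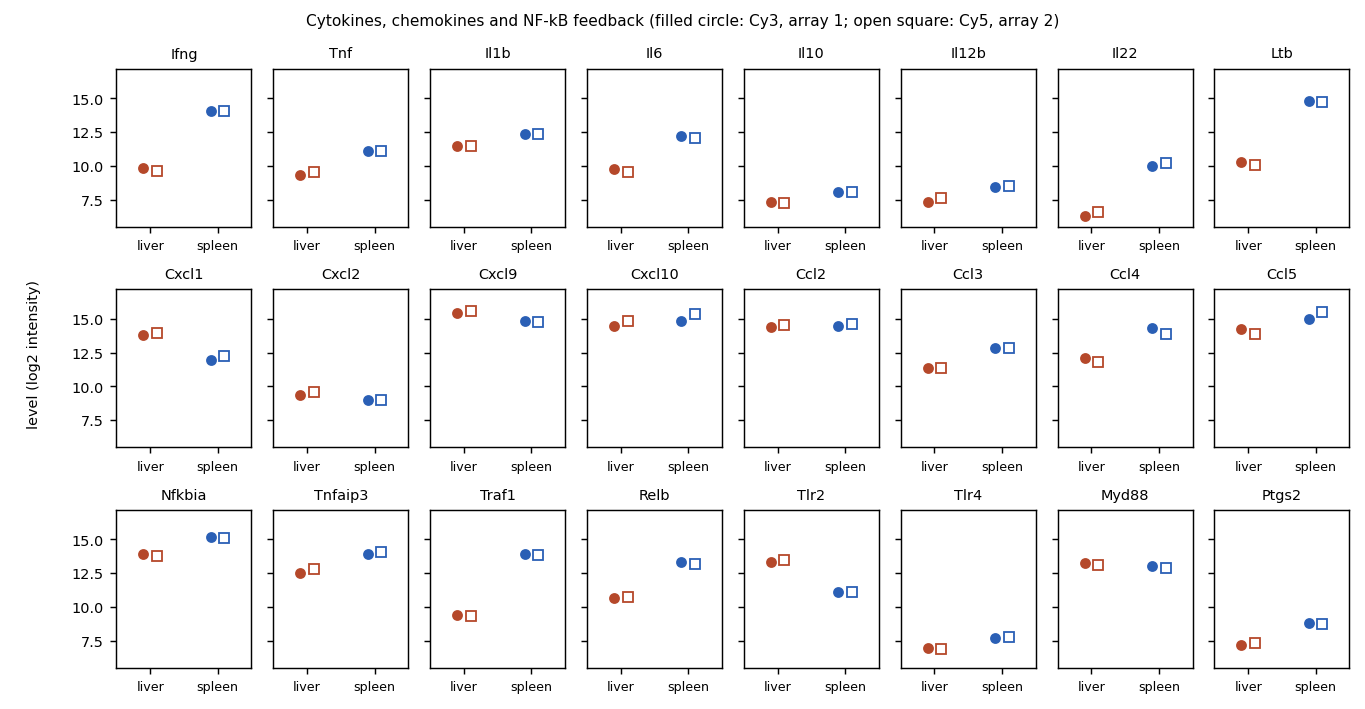
Level (log2 intensity) of 24 cytokines, chemokines, receptors and NF-kB genes in liver and spleen, with 1 filled circle for the Cy3 array and 1 open square for the Cy5 array of each organ. Ifng, Ltb, Il22 and Traf1 are well apart toward the spleen, Cxcl1 and Tlr2 are higher in liver, and Cxcl9, Cxcl10, Ccl2 and Myd88 are close together in both organs.

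NF-kB, the transcription factor downstream of TLR4 and the TNF receptors, induces its own inhibitors. Of 23 subunits and feedback inhibitors 10 were higher in spleen, 3 in liver and 10 neither, and the list median of -0.71 became 0.46 when scaled to ribosomal protein genes. The inhibitor Nfkbia was at 13.93 and 13.79 in liver and 15.17 and 15.10 in spleen (-1.27 ± 0.04), and the deubiquitinase Tnfaip3 at 12.51 and 12.84 in liver and 13.95 and 14.06 in spleen (-1.33 ± 0.15). Both calls were lost under scaling to the 75th percentile, at -0.62 and -0.84, and to ribosomal protein genes, at -0.10 and -0.16. Larger spleen differences were those of Traf1 (-4.51 ± 0.05), the subunit Relb (-2.57 ± 0.16), the inhibitor Nfkbie (-2.90 ± 0.22) and Nfkb2 (-1.95 ± 0.36), of which Relb and Nfkb2 form the noncanonical dimer. Nfkbiz, which NF-kB needs at secondary response genes, was at -0.44 ± 0.28. The 3 genes higher in liver were Chuk (1.43 ± 0.01, and 0.70 by a further probe), Ikbkg (1.55 ± 0.06) and Ikbke (2.17 ± 0.01). Chuk and Ikbkg encode subunits of the kinase complex that releases NF-kB, and Ikbke a related kinase.

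Of 49 interferon-stimulated genes 38 were not called, 3 were higher in liver and 8 in spleen, where 32.8% of all genes were called and 18.7% were higher in spleen, so the count does not set this list apart. Levels of Iigp1, a GTPase against intracellular microbes, were 15.01 and 15.46 in liver and 15.06 and 15.20 in spleen (0.11 ± 0.21), and the tether Bst2 (0.09 ± 0.01) and the guanylate binding protein Gbp2 (0.25 ± 0.08) were alike. The 3 higher in liver were antiviral genes, Cmpk2 (2.24 ± 0.29), its neighbour Rsad2 (1.97 ± 0.02, with other probes at 0.72 and 1.75) and Ifit2 (1.91 ± 0.19). Those higher in spleen included the regulators Irf8 (-2.73 ± 0.31) and Irf5 (-2.20 ± 0.24) of myeloid and lymphoid cells and the DNA sensor family members Ifi203 (-2.88 ± 0.29), Ifi205 (-2.14 ± 0.02) and Ifi204 (-1.58 ± 0.04). Irf1, at -1.31 ± 0.47, missed the bound on 1 dye.

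Promoters were read for the uncalled genes of this list as well. Among the 28 uncalled interferon-stimulated genes with an entry, 15 (53.6%) held the letters GAAANNGAA of interferon regulatory factor sites on either strand, against 8.18% of all genes with an entry, 6.51% of those at least 8-fold higher in liver and 10.1% of those at least 8-fold higher in spleen. The called members of the list were not counted, so this share says nothing about being called or not. The consensus of NF-kB was in 7 of the 28 (25%), against 8.23% of all genes with an entry and 10.4% of the measurable ones. The windows shown are those of Cxcl10, with 1 interferon regulatory factor match and 3 NF-kB matches of which the last 2 overlap, and of the ubiquitin-like Isg15 (0.44 ± 0.17, not called), with 3 interferon regulatory factor matches in a row. Isg15 was chosen after its values were seen. The windows of Ltb and Nfkbia, both higher in spleen, are set beside them, each with 1 NF-kB match. Matches are in capitals, and the share of genes at least 8-fold higher in spleen that held the NF-kB consensus was 13.9%, against 9.85% on the liver side.
Cxcl10, chr5:92348890-92349139, minus strand: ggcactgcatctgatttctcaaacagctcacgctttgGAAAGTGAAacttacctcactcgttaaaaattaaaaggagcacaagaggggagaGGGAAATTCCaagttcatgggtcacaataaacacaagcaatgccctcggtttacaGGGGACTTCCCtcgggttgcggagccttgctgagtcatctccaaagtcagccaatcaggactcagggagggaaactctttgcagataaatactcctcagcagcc
Isg15, chr4:156200819-156201068, minus strand: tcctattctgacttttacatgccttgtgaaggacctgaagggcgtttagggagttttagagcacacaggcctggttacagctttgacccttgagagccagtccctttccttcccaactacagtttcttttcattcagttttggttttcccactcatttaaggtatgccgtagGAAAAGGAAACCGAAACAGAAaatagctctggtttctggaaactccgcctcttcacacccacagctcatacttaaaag
Ltb, chr17:35194257-35194506, plus strand: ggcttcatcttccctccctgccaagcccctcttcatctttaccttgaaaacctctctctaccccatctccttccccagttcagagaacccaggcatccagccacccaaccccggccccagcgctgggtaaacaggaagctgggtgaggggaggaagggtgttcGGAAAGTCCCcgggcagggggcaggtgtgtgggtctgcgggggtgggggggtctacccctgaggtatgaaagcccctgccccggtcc
Nfkbia, chr12:55492648-55492897, minus strand: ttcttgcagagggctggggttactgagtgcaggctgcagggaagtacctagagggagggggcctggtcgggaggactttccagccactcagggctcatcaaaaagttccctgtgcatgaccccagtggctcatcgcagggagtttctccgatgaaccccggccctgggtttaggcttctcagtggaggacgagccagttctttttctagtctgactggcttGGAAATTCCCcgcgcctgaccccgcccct

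Genes of antigen presentation were compared by class. All 15 MHC class II presentation genes were higher in spleen, with a median of -3.69. The class II chain H2-Ab1 was at 11.30 and 11.30 in liver and 14.87 and 14.87 in spleen, and the invariant chain Cd74 at 11.16 and 11.71 in liver and 15.25 and 15.11 in spleen. In MHC class I, which nearly all cells carry, 14 of 17 genes were not called, where 32.8% of all measurable genes were called. H2-K1 was at 15.72 and 15.79 in liver and 15.72 and 15.98 in spleen. The maturation markers Cd83 (-5.08 ± 0.02) and Cd86 (-3.69 ± 0.16) of dendritic cells and B cells were higher in spleen, as were 10 of 16 inflammasome genes with 0 higher in liver, among them the adaptor Pycard (-3.16 ± 0.37) and the protease Casp1 (-2.61 ± 0.15).

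Macrophage genes lay on both sides. Clec4f, a lectin of Kupffer cells, the macrophages of the liver, was at 11.53 and 11.70 in liver and not well above background in spleen, where it was at 6.05 and 6.01, so liver was at least 46.6-fold higher. The complement receptor Vsig4 was at least 7.63-fold higher in liver. In the other direction went the scavenger receptor Marco of marginal zone macrophages, at 12.87 and 12.58 in liver and 15.67 and 15.62 in spleen (-2.92 ± 0.17), and Spic, the factor of red pulp macrophages, at -3.08 ± 0.33 by its brightest probe and 0.95 by another. In all, 14 of 20 macrophage markers were higher in spleen and 2 in liver.

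Of the neutrophil markers 16 of 18 were not called, where 32.8% of all measurable genes were called. S100a8, a calprotectin subunit, was higher in spleen at -1.37 ± 0.24, with 11.29 and 11.50 in liver and 12.82 and 12.70 in spleen, and its partner S100a9, at -1.09 ± 0.50, missed the bound on 1 dye. Lcn2, also an acute phase gene, was the 1 member higher in liver. The T cell gene Cd3e was at 8.58 and 8.18 in liver and 7.71 and 7.77 in spleen, out of step with Cd3d of the same receptor complex, which was at -4.74 ± 0.01, but this rests on the brighter of its 2 probes, the other giving -0.53.

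**Figure D4:**
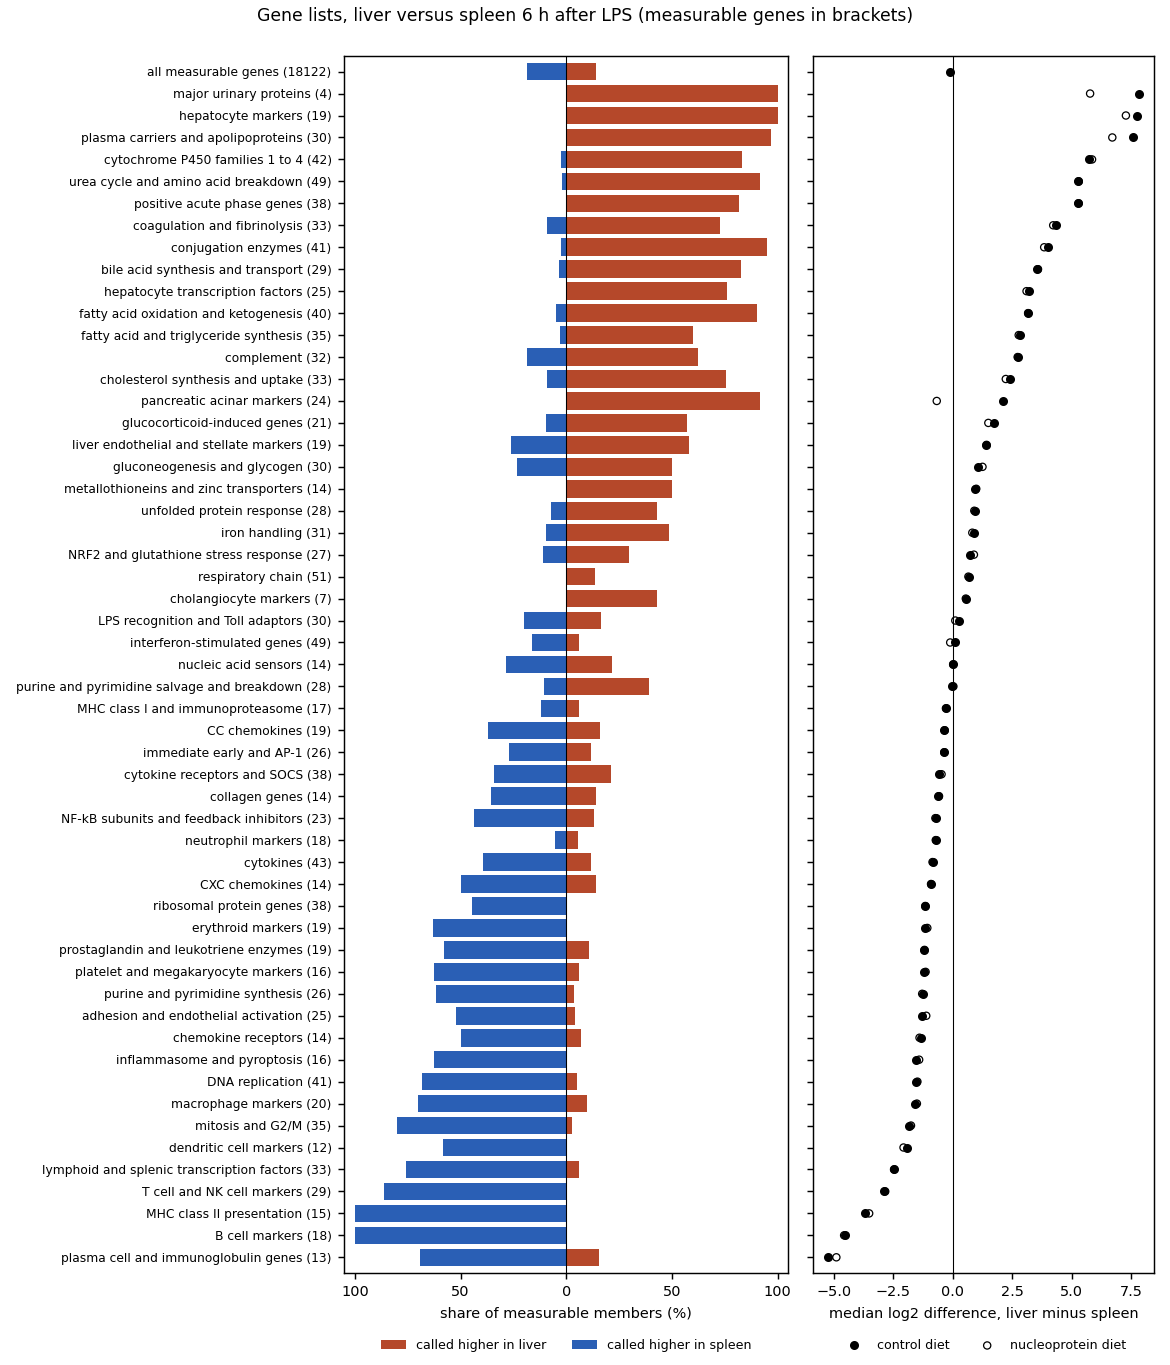
Left, share of the measurable members of each of 54 gene lists called higher in liver (right bars) or in spleen (left bars), with the number of measurable genes in brackets and all measurable genes in the top row (14.1% and 18.7%). Right, median log2 difference, liver minus spleen, in the control pools (filled) and in the nucleoprotein pools (open). Plasma proteins and metabolic lists lie at the top, B cell, MHC class II and immunoglobulin lists at the bottom, and the acinar list is the one whose open circle (-0.67) is on the other side of 0 from a filled circle beyond 2.

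Metabolic genes formed a further large block in liver. Amino acid breakdown and the urea cycle, which turns ammonia into urea, had 45 of 49 genes higher in liver and 1 in spleen, with a median of 5.27. Cps1, the first enzyme of the cycle, was at 13.68 and 14.94 in liver and not well above background in spleen, at 6.11 and 5.98, so liver was at least 304-fold higher. The tyrosine enzyme Tat differed by 8.16 ± 0.10, arginase (Arg1) by 8.19 ± 0.61 and the methionine enzyme Mat1a by 8.36 ± 0.26.

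Enzymes of drug and hormone clearance followed. Of 42 cytochrome P450 genes 35 were higher in liver and of 41 conjugation enzymes 39, with medians of 5.74 and 4.02. Cyp3a11, the main steroid hydroxylase, was at 13.65 and 13.58 in liver and 6.26 and 6.36 in spleen (7.30 ± 0.12), and Cyp2f2 differed by 8.56 ± 0.46. The 1 P450 gene higher in spleen was Cyp1b1 (-4.30 ± 0.06, and -0.96 by a further probe), and the 1 conjugation gene was the microsomal transferase Mgst2 (-3.34 ± 0.23).

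Bile acid genes were mostly liver genes. Of 29 members 24 were higher in liver, such as the export pump Abcb11 (7.24 ± 0.04), the uptake carrier Slco1b2 (8.45 ± 0.08) and the ligase Slc27a5 (8.47 ± 0.34). The transporter Abcc4 (-2.06 ± 0.08, and -0.44 by a further probe) was the 1 higher in spleen, and 4 were not called. Cyp7a1, the rate-limiting enzyme of bile acid synthesis and a gene of hepatocytes, was at 6.59 and 6.57 in liver and 6.13 and 6.18 in spleen, where it was not well above background, so liver was at least 1.34-fold higher and the gene was not called.

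Fat and sugar metabolism divided by branch. Of 40 genes of fatty acid oxidation and ketogenesis 36 were higher in liver, among them the fatty acid carriers Fabp1 (6.99 ± 0.05) and Fabp2 (6.94 ± 0.19) and the acyl-CoA synthetase Slc27a2 (7.83 ± 0.34). The 2 higher in spleen were Oxct1 (-3.26 ± 0.10), with which tissues burn ketones and which liver is known to lack, and Pdk4 (-1.19 ± 0.14). Fatty acid synthesis had 21 of 35 higher in liver, including Thrsp (7.67 ± 0.14) and Elovl2 (6.42 ± 0.40), while the desaturase Scd2 (-2.24 ± 0.18) was the 1 higher in spleen.

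In the glucose list 15 of 30 were higher in liver and 7 in spleen. Liver genes were Fbp1, the glucokinase regulator Gckr (7.82 ± 0.46) and glycogen synthase 2 (Gys2, at least 126-fold). Glucose 6-phosphatase (G6pc), the last step of glucose release, was at 9.05 and 9.10 in liver and 6.33 and 6.50 in spleen, a difference of 2.66 ± 0.08. Spleen genes were those of glycolysis and mitochondrial phosphoenolpyruvate, pyruvate kinase M (Pkm, -3.31 ± 0.84), Pck2 (-3.25 ± 0.26), hexokinase 1 (Hk1, -2.41 ± 0.35, with other probes from -0.60 to 0.09) and the transporter Slc2a3 (-2.13 ± 0.15). For Pck1, the cytosolic form, 1 liver spot was an outlier and no difference was taken, the other liver array giving 14.82 and the spleen arrays 6.54 and 6.27. The insulin-like growth factor binding protein Igfbp1, which fasting and glucocorticoids induce in liver, differed by 8.46 ± 0.65.

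Cholesterol genes were higher in liver in 25 of 33 cases, such as the sterol reductase Tm7sf2 (6.28 ± 0.17), while the exporter Abcg1 (-2.68 ± 0.14) was higher in spleen. The respiratory chain had 44 of 51 genes not called, 7 higher in liver, 0 in spleen and a median of 0.68. Over all measurable genes 14.1% were higher in liver and 18.7% in spleen, so the liver count does not set this list apart. The transcription factors of hepatocytes were liver genes as well: 19 of 25 were higher in liver and 0 in spleen, among them Hnf4a (at least 104-fold, with other probes at 2.27 and 2.57) and Foxa2 (5.65 ± 0.39).

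Genes that make nucleotides were mostly spleen genes or not called. Of 26 genes that make purines and pyrimidines 16 were higher in spleen and 1 in liver, with a median of -1.24, close in size to the shift of 1.17 under ribosomal protein scaling. They included Impdh1 (-2.65 ± 0.06), the pyrimidine enzyme Cad (-2.53 ± 0.12, with other probes from -2.70 to 0.14) and Ctps (-2.53 ± 0.17). Of 28 genes of salvage and breakdown 11 were higher in liver, 3 in spleen and 14 neither, with a median of -0.02. Liver genes were urate oxidase, adenosine kinase (Adk, 3.75 ± 0.22) and the 3 steps of pyrimidine breakdown, Dpyd (6.74 ± 0.04), Dpys (5.96 ± 0.09) and Upb1 (6.43 ± 0.20), and the spleen genes were the salvage enzymes Aprt (-2.56 ± 0.11), Dck (-1.85 ± 0.13) and Uck2 (-1.28 ± 0.03), for which other probes gave -0.22 (Aprt), -1.34 and -0.74 (Dck) and -0.90 (Uck2). DNA replication and mitosis genes were higher in spleen in 28 of 41 and 28 of 35 cases.

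The same comparison in the nucleoprotein pools of the same arrays was made for comparison. Of the 2554 genes called higher in liver 2391 (93.6%) were also called there, and of the 3389 called higher in spleen 3091 (91.2%). These pools were other mice on another diet but were hybridised to the same arrays, so array errors are shared. A difference of the opposite sign in both dyes was found for 19 of the liver genes and 0 of the spleen genes. Of the 19, all but Dbp, a clock gene (1.05 ± 0.06 against -0.40 ± 0.12), are genes of the exocrine pancreas. Carboxypeptidase B1 (Cpb1) was at 2.05 ± 0.02 in the control pools, with 14.14 and 13.90 in liver and 12.10 and 11.84 in spleen, and at -2.81 ± 0.16 in the nucleoprotein pools.

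For some of the strongest liver genes the difference was smaller in the nucleoprotein pools. Alb was at 5.74 ± 0.10 there against 7.59 ± 0.63, Saa2 at 7.23 against 8.74 ± 0.45, and the median of the carriers at 6.71 against 7.56. Alb and Saa2 kept their direction and their call.

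**Figure D5:**
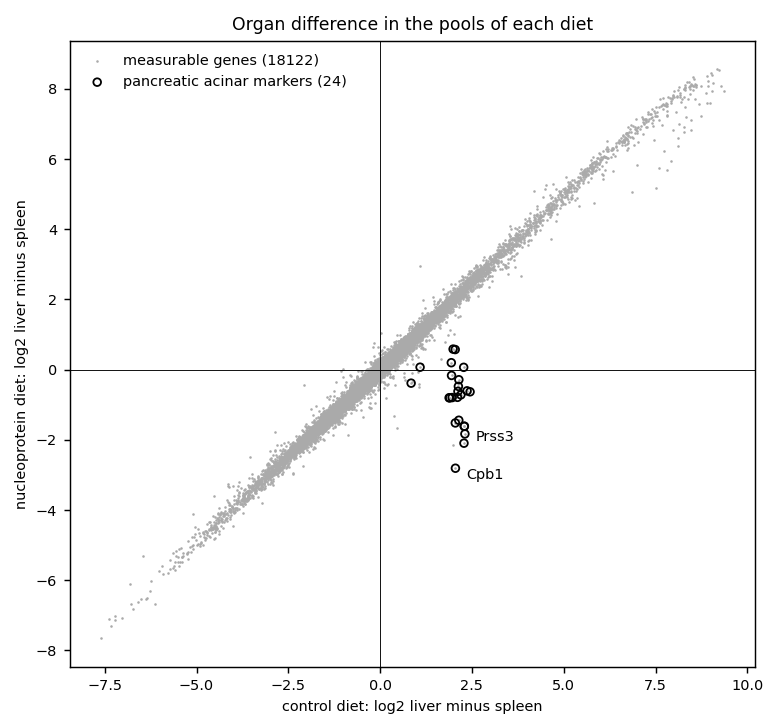
Log2 difference, liver minus spleen, in the nucleoprotein pools (vertical axis) against that in the control pools (horizontal axis) for the 18122 measurable genes, with the 24 acinar markers as open circles. Most genes lie along the diagonal, and the acinar markers lie below it, Cpb1 at 2.05 and -2.81.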

How the data were processed

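Total RNA of liver and spleen was measured on 4 two-colour Agilent mouse arrays of 1 slide (43379 gene spots for 41174 probes, 1639 control spots). The deposited values are spot intensities, mean and local background in each channel, read out by Feature Extraction of Agilent, version 9.5.1.1 per the file headers and 9.5.3.1 in the submitters' processing notes. Here they were background-corrected (normexp, offset 50), normalized within arrays by loess with control spots at weight 0 and between arrays by Aquantile (limma 3.58.1, R 4.3.3). These steps were tested on simulated data in which only a few genes differed, as many up as down. That test could not show how the scaling behaves when as many genes differ as here. Outlier spots (189 to 354 per array) were left out, spots of a probe were averaged, and a gene was its brightest probe with values on all 4 arrays. Probes were named through a RefSeq table of GRCm38.p6, 22951 by accession and 9768 by name or synonym, and 8455 kept the name in the file. The precision is limited by the number of arrays. The SD of 2 differences is the only error given.

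Replicate number and dye are the same thing here, so each difference was taken within a replicate number. Fewer than 3 pairs exist, and whether the numbers also pair pools is not stated. The 12 largest differences each way, the 6 largest bounds each way, up to 4 called members per direction and the 3 brightest of each list, and 50 key genes could be named. The members and lists were chosen with earlier results of these data known. Alternatives were another offset, 4 other scalings or signals, filters, bounds and probe rules, each replicate left out, fits without and with the replicate block, and the nucleoprotein channel. Nos2, a key gene, was not measurable. The authors' series value table holds diet ratios and was not used here. Some genes that the naming rule covers are not reported here.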

Additional observations from a re-analysis of the deposited data

Results flagged for a closer look

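Several results had one sign in the control pools and the other in the nucleoprotein pools in both dyes, and this difference between diets was not tested. Most concern genes of the exocrine pancreas. The median of the 24 acinar markers was 2.11 in the control pools and -0.67 in the nucleoprotein pools. Cpb1 went from 2.05 to -2.81, the trypsinogen Prss3 from 2.31 to -1.83, the regenerating protein Reg2 from 2.29 to -1.61, the pancreatic amylase Amy2 from 1.90 to -0.80, the lipase Cel from 2.45 to -0.63 and carboxypeptidase A1 (Cpa1) from 2.37 to -0.60. Several of these families are alike in sequence, so that a probe can bind more than 1 member. Another is the median of the 49 interferon-stimulated genes, 0.11 in the control pools and -0.11 in the nucleoprotein pools, both of about the size of the median SD of a gene.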

How the results depend on the processing

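Counts of calls moved with the scaling and the bound. Genes higher in spleen, 3389 in the setting used, were 2155 with channels set to the 75th percentile, 812 with channels set to ribosomal protein genes, 5240 at 1.5-fold and 1129 at 4-fold. Genes higher in liver, 2554 in the setting used, were 4175 with Feature Extraction's processed signals, 7390 with ribosomal protein scaling and 1302 at 4-fold, where liver held 53.6% of calls. Leaving out 1 replicate gave 2832 to 2856 genes in liver and 3806 to 3808 in spleen. With no replicate block, every liver value against every spleen value, 2436 and 3174 were called, and limma with the replicate block, as if the pools were separate, called 2817 and 3824. Of the 54 list medians 27 were above 0, and 38 with ribosomal protein scaling. That scaling turned the median of the ribosomal protein genes themselves to 0.0259, Psme1 to 0.15, Srebf2 to 0.14 and Col5a2 to 0.0415. The median over all probes turned Itgb3 to 0.42 and Col6a3 to 0.0255. The nucleoprotein channel turned the acinar median to -0.67, Cel to -0.63, Cpa1 to -0.60, Prss3 to -1.83, Reg2 to -1.61, Amy2 to -0.80 and Cpb1 to -2.81. The cause was not tested. Of 409 named genes, 88 lost their call at 4-fold, 65 under ribosomal protein scaling, 22 under the median over all probes, 21 with Feature Extraction's processed signals, 20 at the 75th percentile and 9 under quantile normalization within dye. Spleen signals near background limit the size of the liver differences.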

Other observations

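Adhesion genes and prostaglandin enzymes that passed the bound were mostly spleen genes. Over all measurable genes 14.1% were higher in liver and 18.7% in spleen. The list medians, -1.29 and -1.21, were close in size to the shift of 1.17 under ribosomal protein scaling. Of 25 adhesion and endothelial genes 13 were higher in spleen and 1 in liver. Spleen genes were the leucocyte ligand Selplg (-4.05 ± 0.18), the integrin Itga4 (-3.60 ± 0.05, with other probes from -2.74 to 0.09) and Icam1 (-1.29 ± 0.15, with another probe at -0.91), and the exception was P-selectin (Selp), at 10.65 and 10.82 in liver and 7.52 and 7.52 in spleen, a difference of 3.21 ± 0.12. Selp stood apart from the platelet genes Pf4 and Ppbp, both higher in spleen. Of 19 prostaglandin and leukotriene genes 11 were higher in spleen, with the inducible cyclooxygenase Ptgs2 at -1.51 ± 0.14 and the synthase Ptges at -2.06 ± 0.61, and the prostaglandin-degrading enzyme Hpgd was higher in liver at 2.59 ± 0.39.

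A few genes went against other members of their list. In the replication list, where 28 of 41 genes were higher in spleen, E2f8, a repressor known for polyploid hepatocytes, was at 11.09 and 11.29 in liver and 5.96 and 6.33 in spleen (5.05 ± 0.13, and 2.06 by a further probe), and the replication factor Mcm10 was at 1.95 ± 0.16. The collagen and immediate early lists had no clear direction, with medians of -0.63 and -0.37 that became 0.55 and 0.80 when scaled to ribosomal protein genes. Among 14 collagen genes 5 were higher in spleen and 2 in liver, against 18.7% and 14.1% of all measurable genes. Col1a2 (-2.32 ± 0.32) led the spleen side, and Col18a1, the source of endostatin, was higher in liver at 4.65 ± 0.11. Of the 26 immediate early genes 3 were higher in liver, Egr1 (1.97 ± 0.08), Ier3 (1.78 ± 0.28) and Btg2 (2.67 ± 0.15). Another 7, among them Myc (-3.74 ± 0.03) and Nr4a1 (-2.29 ± 0.18), were higher in spleen, and 16 were not called. The decoy receptor Ackr1, which binds many inflammatory chemokines, was the 1 chemokine receptor higher in liver, at 3.81 ± 0.06, whereas Ccr6 (-4.45 ± 0.13) was higher in spleen.

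Iron genes lay in both organs. Besides hepcidin, transferrin receptor 2 (Tfr2, 6.72 ± 0.05) and the importer Slc39a14 (4.08 ± 0.34) were higher in liver, and the haem-degrading Hmox1 (-1.75 ± 0.35) and the phagosomal exporter Slc11a1 (-1.92) were higher in spleen. Of 28 unfolded protein response genes 12 were higher in liver, among them Dnajb9 (2.37 ± 0.27) and Xbp1 (1.99 ± 0.16), while Trib3 (-1.58 ± 0.09) and Asns (-1.31 ± 0.10) were higher in spleen. For 18 genes another probe was called the other way from the brightest probe.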
